A study of Mus musculus with 4 samples.

Results

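The 6 genes described here, Entpd1, Nt5e, Adora2a, Adora2b, Ada and P2rx7, act on ATP and adenosine outside the cell. They were taken by gene symbol from the 55450 genes of the count matrix, with earlier results of these data known. The study profiled single cells from 4T1 tumours by droplet RNA sequencing, and asked how the immune cells of the tumour changed under treatment. 4T1 is a mouse mammary carcinoma line. In every group 1000000 4T1 cells were implanted in the right flank of female BALB/c mice aged 6 to 8 weeks. The PBS group (2 samples by the labels) received PBS intravenously on day 7 and the TIOs+NIR3 group (1 sample) received TIOs, the T cell inspired nanosystem of the study. Both groups were then lit with near-infrared light (980 nm, 1.0 W per square cm, 5 minutes) from day 8 to day 10, and tumours were taken on day 13. 1 further sample was left without a group, because its title reads PBS and its protocol reads TIOs. The sources used here do not say how many mice each sample holds.

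Dying and stressed cells release ATP, and P2RX7 is a channel that opens at high ATP and drives inflammasome signalling in myeloid cells. CD39, the product of Entpd1, cuts ATP and ADP down to AMP, and CD73, the product of Nt5e, turns AMP into adenosine. Adenosine then acts on leucocytes through the receptors encoded by Adora2a and Adora2b, both of which raise cyclic AMP and mostly restrain immune cells, and adenosine deaminase (Ada) ends the signal by turning adenosine into inosine.

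The matrix held 4 libraries, told apart by the suffix of the cell barcode. Which library came from which sample is stated nowhere in the sources used here. All cells were therefore read as 1 pool, with the libraries given apart, and treatments were not compared. No p-value was computed. After the study's filter (at least 300 genes and at most 15% mitochondrial UMIs) 32133 of 33064 barcodes of the 4 libraries remained. The study states 15603 cells, which it divides into PBS and TIOs+NIR3. Which of the libraries it counted is not stated, so the 2 numbers may cover different samples. The 4 libraries kept 6783 to 8889 cells, with a median of 2641.5 to 11698 UMIs per cell, and 101 of 32963 barcode sequences (0.306%) occurred in more than 1 library. Cells were put into 18 gates by lists of 6 to 8 marker genes, and 3206 cells (9.98%) entered none. A gate name below stands for cells that carry those markers. The tumour gate rests on epithelial markers such as Epcam and Krt8, which do not tell tumour cells from other epithelium. Its cells are called tumour cells below for short. Although the cells were sorted for CD45, a UMI of Ptprc, which encodes CD45, was found in 14.1% of the 4068 cells of the tumour gate and in 27.1% of the 3908 fibroblasts, against 67.9% of the 9079 neutrophils and 99.1% of the 233 NK cells. The libraries were uneven. Library 1 held 3821 of the 4068 tumour cells and 248 of the 271 CD8 T cells, and library 3 held 196 of the 234 mature dendritic cells. Markers of 2 compartments, for example tumour and myeloid, were found together in 3.13% of neutrophils, 30.8% of macrophages, 59.3% of tumour cells and 73.6% of fibroblasts. The count of markers was not corrected for depth, and the median was 1837, 6989, 19108 and 28402.5 UMIs per cell in these gates. The level of each gene in its leading gate without such mixed cells is given in the closing section, and the part of free RNA in the values was not tested.

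A level is given as CPM, the UMIs that a gene had among 1000000 UMIs summed over a gate, with exact 95% binomial intervals that cover counting error only. Gates were ranked by their median level over the libraries in which they had at least 50 cells, which 16 gates reached in 1 library or more. Since a gate with little RNA per cell shows fewer UMIs, the share of cells with a UMI was also computed after each cell was thinned to 1000 UMIs.

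P2rx7 was a gene of the monocyte and macrophage gates. Its level in monocytes was 22.4, 41.4, 51.8 and 36.1 CPM in libraries 1 to 4, and in macrophages 28.9, 42.0, 41.4 and 35.8 CPM. The ranges of both gates overlapped, and macrophages were higher in libraries 1 and 2 while monocytes were higher in libraries 3 and 4. Monocytes held 41.7% and macrophages 30.6% of the 4018 P2rx7 UMIs. Plasmacytoid dendritic cells, the main makers of type I interferon, came next at 27.5 CPM (18.4 to 39.5) over the pooled libraries, and their level in library 4, the one with 101 of their 155 cells, was 24.9 CPM. Cytotoxic cells had few P2rx7 UMIs. The pooled level was 1.83 CPM in CD8 T cells (3 UMIs in 271 cells) and 0.744 CPM in NK cells (1 UMI in 233 cells), whereas CD4 T cells stood at 13.2 CPM (8.90 to 18.8). Mature dendritic cells, with a median of 8861 UMIs per cell, had a P2rx7 UMI in 0.427% of cells, against 23.8% of monocytes at a median of 7839 UMIs. At 1000 UMIs per cell the share was 4.34% (3.79 to 4.94) in monocytes and 3.30% (2.78 to 3.90) in macrophages. Neutrophils had 5.37 to 11.9 CPM over the 4 libraries.

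Entpd1 had its highest level in neutrophils in every library. The level there was 224, 256, 137 and 188 CPM in libraries 1 to 4, with a pooled value of 195 CPM (189 to 201), and neutrophils held 41.1% of the 10357 Entpd1 UMIs. The pooled level without library 2 was 163 CPM and without library 3 it was 229.5 CPM. Neutrophils were also the shallowest of the large gates (median 1837 UMIs per cell). A UMI of Entpd1 was found in 31.1% of them, while at 1000 UMIs per cell the share was 19.2% (18.4 to 20.1) in neutrophils, 12.5% (8.93 to 16.8) in endothelial cells, 7.81% (4.90 to 11.7) in CD8 T cells and 5.03% (4.38 to 5.75) in macrophages. The order of these 4 gates by thinned share was that by level.

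**Figure D1:**
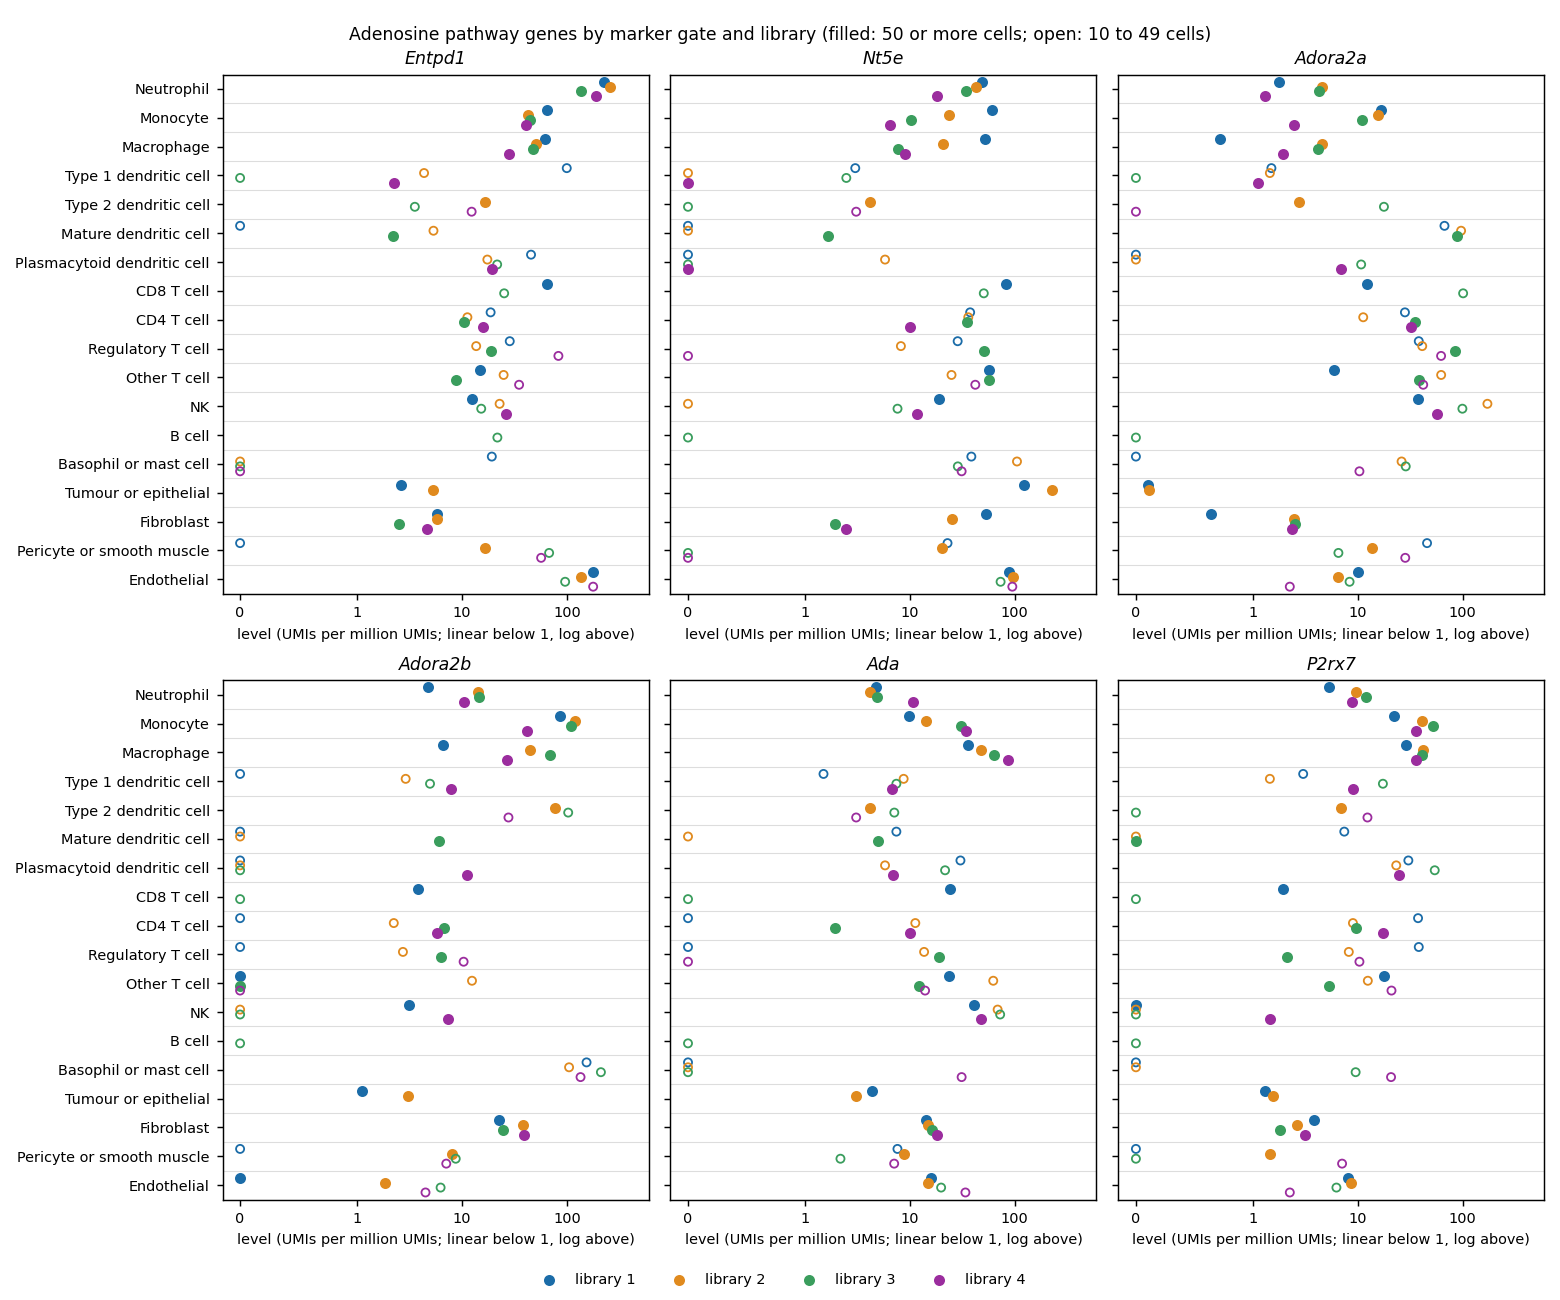
Level of each of the 6 genes (x axis, UMIs per 1000000 UMIs, linear below 1 and logarithmic above) in the 18 gates (y axis), with 1 point per library. Filled points are gates with at least 50 cells in that library and open points those with 10 to 49. Entpd1 in neutrophils lies between 137 and 256 CPM in the 4 libraries, and Adora2b in basophils or mast cells lies between 105 and 211 CPM although all 4 points are open.

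Endothelial cells, where CD39 keeps platelets quiet, were second for Entpd1. Their level was 177 CPM in library 1 and 137 CPM in library 2, with 96.3 CPM in library 3 (42 cells) and 178 CPM in library 4 (16 cells). The endothelial and neutrophil ranges overlapped over the libraries, but in each library the neutrophil level was higher. In libraries 1 and 4 the counting intervals of the 2 gates overlapped. The thinned share in library 4 was 26.7% (7.79 to 55.1) in 15 endothelial cells and 19.1% (17.4 to 21.0) in neutrophils. CD8 T cells stood at 64.9 CPM in library 1, close to the 61.4 CPM of macrophages and the 64.4 CPM of monocytes there. Within CD8 T cells the pooled level was 69.3 CPM (55.9 to 85.0) in the 203 cells with a UMI of Pdcd1, which encodes the inhibitory receptor PD-1, and 38.1 CPM (19.7 to 66.6) in the 68 cells without. These intervals overlapped, and the median depth also differed, 4864 against 3560 UMIs. Regulatory T cells, which are known for CD39 in mice, had 24.1 CPM (15.6 to 35.5) from 25 UMIs. The level was 4.25 CPM in fibroblasts, 2.92 CPM in tumour cells and 2.31 CPM in mature dendritic cells, of which 2.14% had a UMI.

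Neutrophils were divided by Retnlg, a gene of circulating neutrophils, and Cd274, which encodes PD-L1. Retnlg is also a marker of this gate, so cells without it entered by the other markers. The level of Entpd1 was 176 CPM (167 to 184) in the 3178 cells with a Retnlg UMI, 202 CPM (189.6 to 215) in the 2097 with Cd274 and no Retnlg, and 217 CPM (206 to 228) in the 3804 with neither. The median depth also differed, with 1984, 1910 and 1708 UMIs per cell. At 1000 UMIs per cell the share with a UMI was 20.5% (19.1 to 22.0), 17.6% (16.0 to 19.4) and 19.0% (17.7 to 20.4), so that the Retnlg cells were lowest by level and highest by share, with overlapping intervals of the shares. The order by level did not hold in each library either. In library 2 the cells with neither were highest, at 311 CPM (289 to 333), and in library 3 they had 125 CPM (112 to 139), against 133 CPM (122 to 145) with Retnlg and 165 CPM (146 to 186) with Cd274. All 3 kinds of neutrophil thus had Entpd1 at more than 100 CPM in every library.

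1 further value of Entpd1, in a small gate, was chosen after the values were seen. Type 1 dendritic cells, which present antigen to CD8 T cells, had 66 UMIs in the 48 cells of library 1 (99.8 CPM), and 3, 0 and 2 UMIs in the 49, 29 and 58 cells of libraries 2, 3 and 4 (4.37 CPM in library 2 and 2.26 CPM in library 4). The count of 0 in 29 cells allows a share of cells with a UMI of up to 10.3% by a floor of 3 counts, and up to 11.9% by the exact 95% interval. In this gate 46.2% of cells also had the markers of another compartment.

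By level, Nt5e led in the tumour gate. Its level there was 122 CPM in library 1 and 226 CPM in library 2, the 2 libraries with tumour cells in number, and 66.5% of all 17251 Nt5e UMIs lay in this gate. The pooled level was 133 CPM (130.4 to 135). It rested on library 1, without which it was 226 CPM. Tumour cells were deep (median 19108 UMIs) and 72.0% of them had an Nt5e UMI, or 11.8% (10.8 to 12.9) at 1000 UMIs per cell. Endothelial cells had a thinned share of 9.76% (6.64 to 13.7), and the 2 intervals overlapped. Krt14, a basal keratin that did not enter the gate, was highest in these cells (445 CPM), which does not tell tumour cells from other epithelium. The other 5 genes were low in tumour cells, with 2.92 CPM of Entpd1, 1.32 CPM of Adora2b, 1.34 CPM of P2rx7, 4.28 CPM of Ada and 0.104 CPM of Adora2a (9 UMIs in 4068 cells).

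Endothelial cells, a classical site of CD73, held Nt5e at 88.5, 95.3, 73.3 and 94.8 CPM in libraries 1 to 4, and were the only gate above 50 CPM in all 4 libraries. Markers of a second compartment were found in 55.9% of endothelial cells, and the cells without them had 61.1, 76.1 and 29.8 CPM in libraries 1, 2 and 3 (34, 84 and 11 cells). CD8 T cells had 82.8 CPM in library 1. In that library the 8 tumour markers summed to 931 CPM in the CD8 gate. The level was 62.6 CPM in the 125 CD8 T cells without markers of a second compartment, and 89.0 CPM, from 6 UMIs, in the 19 cells without any tumour marker. The cells with a Pdcd1 UMI, 200 of 203 of them from library 1, had 91.1 CPM (75.6 to 109) and those without had 41.3 CPM (22.0 to 70.6). The thinned shares were 8.37% (4.95 to 13.1) and 4.55% (0.947 to 12.7), with overlapping intervals. T cells with neither Foxp3 nor an unmixed CD4 or CD8 pattern had 56.8 CPM in library 1 and 56.4 CPM in library 3. Regulatory T cells had 28.6, 8.24, 50.7 and 0 CPM in libraries 1 to 4, from 32, 23, 83 and 17 cells. Their pooled level was 28.9 CPM (19.5 to 41.2). Dendritic cells had next to none, with 1.14 CPM in type 1, 2.93 CPM in type 2, 1.38 CPM in mature and 0.949 CPM in plasmacytoid dendritic cells, and 0.645% of the plasmacytoid cells (median 6580 UMIs) had a UMI.

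Outside the tumour gate the level of Nt5e differed between libraries. In monocytes it was 60.2, 23.5, 10.3 and 6.44 CPM in libraries 1 to 4, in macrophages 52.4, 20.7, 7.79 and 8.98 CPM, and in fibroblasts 53.3, 25.4, 1.94 and 2.45 CPM. The 8 tumour markers summed over the same cells went from 509.8 to 8.86 CPM in monocytes, from 1089 to 3.90 CPM in macrophages and from 730.1 to 12.9 CPM in fibroblasts, and all 8 were detected in libraries 1 and 2. Neutrophils spread less, with 48.9, 43.2, 34.5 and 18.0 CPM, beside marker sums of 1315, 192, 11.6 and 6.37 CPM. In the cells without a UMI of any tumour marker, neutrophils had 27.7, 34.0, 34.7 and 17.9 CPM and macrophages had 36.6, 16.9, 7.94 and 8.62 CPM. Monocytes without these markers had 36.4, 25.4, 10.5 and 6.56 CPM and fibroblasts 235, 21.3, 1.84 and 2.01 CPM, where the library 1 values rest on 2 UMIs in 13 monocytes and 4 UMIs in 6 fibroblasts. The library 1 values of neutrophils and macrophages rest on 7 UMIs in 159 cells and 11 UMIs in 110 cells. The ratio of the highest to the lowest library in the cells without tumour markers was 1.94 for neutrophils, against 2.72 in all cells. It was 5.55 against 9.35 for monocytes, 4.61 against 6.73 for macrophages and 128 against 27.5 for fibroblasts. Except for neutrophils, the ratios without tumour markers rest on these few library 1 UMIs. No interval was computed, so the ratios of a gate cannot be told apart. Shallow cells lack a marker UMI more easily, and the 2 sets of cells were not matched for depth. For neutrophils the highest was library 1 among all cells and library 3 among those without tumour markers. In libraries 3 and 4, which had 0 and 1 tumour cells, the neutrophil tumour marker sums were 11.6 and 6.37 CPM beside 280 and 82 Nt5e UMIs. The part of tumour RNA in the Nt5e level of libraries 1 and 2 was not tested further.

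**Figure D2:**
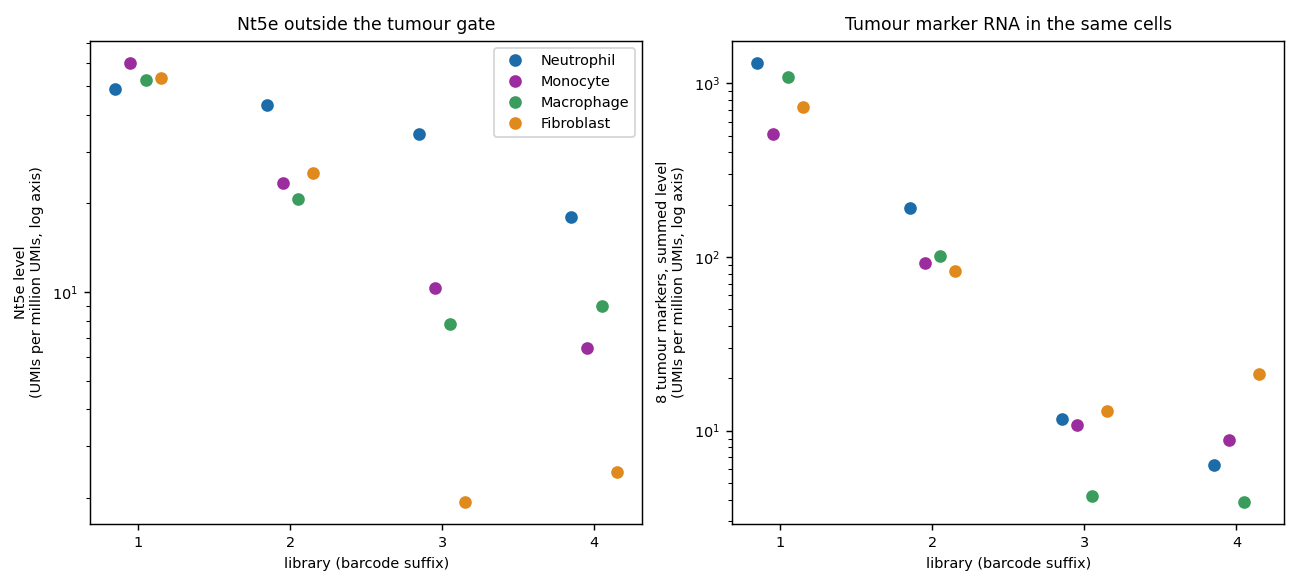
Left, level of Nt5e (UMIs per 1000000 UMIs, log axis) and right, summed level of the 8 tumour markers (same unit, log axis) in neutrophils, monocytes, macrophages and fibroblasts of the 4 libraries (x axis). In each of these gates both panels are highest in library 1. In neutrophils Nt5e lies between 18.0 and 48.9 CPM and the marker sum between 6.37 and 1315 CPM.

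CD39 and CD73 act in sequence, though other enzymes can also make AMP and adenosine. The gates with both genes above 50 CPM in the pool were endothelial cells (137 CPM of Entpd1 and 91.3 CPM of Nt5e) and CD8 T cells (63.3 and 81.6 CPM). A UMI of each was found in 105 of 304 endothelial cells (34.5%, 29.2 to 40.2) and in 23 of 271 CD8 T cells (8.49%, 5.46 to 12.5). In macrophages the share was 5.67% (5.00 to 6.41), in tumour cells 4.03% (3.45 to 4.68) and in neutrophils 1.53% (1.29 to 1.81). Deep cells show both genes more often. After thinning to 1000 UMIs the share was 0.673% (0.0817 to 2.41) in endothelial cells and 0.523% (0.382 to 0.699) in neutrophils. It was 0.743% (0.0902 to 2.66) in CD8 T cells, 0.148% (0.0543 to 0.322) in macrophages and 0.149% (0.0548 to 0.325) in tumour cells. Markers of a second compartment were found in 55.9% of endothelial cells, 47.6% of CD8 T cells, 30.8% of macrophages, 59.3% of tumour cells and 3.13% of neutrophils. The part of such cells and of free RNA in the shares with both genes was not tested. Among endothelial cells Nt5e was found in 55.0% of those with Entpd1 and 21.2% of those without, and after thinning in 5.41% (0.661 to 18.2) and 10.4% (6.96 to 14.7). In neutrophils the 2 shares were 4.92% (4.15 to 5.78) and 6.11% (5.53 to 6.73).

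The 2 receptor genes led in different gates. Adora2a, the gene of the high-affinity receptor, was found in few cells (1322 UMIs in all). It led in mature dendritic cells, the migratory Ccr7 type, at 88.9 CPM in library 3 and 87.7 CPM (75.7 to 101) in the pool, and 52.1% of them had a UMI. The small numbers of these cells in libraries 1 and 2 (17 and 19) gave 67.1 and 96.6 CPM. Lymphocytes came next. Regulatory T cells had 84.5 CPM in library 3, and 38.2, 41.2 and 62.3 CPM in libraries 1, 2 and 4 with 17 to 32 cells. NK cells had 37.8, 172, 99.4 and 57.5 CPM, with 13 cells in library 2 and 37 in library 3. In library 3 the values of mature dendritic, regulatory T and NK cells lay close together with overlapping intervals, and their order cannot be told there. The thinned share was 11.9% (8.02 to 16.9) in mature dendritic cells, 8.50% (4.60 to 14.1) in regulatory T cells, 7.73% (4.64 to 11.9) in NK cells and 5.04% (3.02 to 7.85) in CD4 T cells, and the intervals of the first 3 overlapped. CD4 T cells had 29.0 CPM and CD8 T cells 15.2 CPM (9.85 to 22.5).

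Most other gates were low for Adora2a. Macrophages had 0.723 to 4.56 CPM over the libraries and neutrophils 1.32 to 4.55 CPM. Monocytes had 16.8, 15.6, 11.0 and 2.47 CPM, and library 4, with 3759 of their 5005 cells, was the low one. Fibroblasts held the most UMIs of any gate (22.5%) at a level of 2.42 CPM, and were the deepest cells (median 28402.5 UMIs). Pericytes or smooth muscle cells, in which this receptor relaxes vessels, had 15.2 CPM (10.4 to 21.5) from 32 UMIs.

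For Adora2b, the gene of the low-affinity receptor, monocytes, type 2 dendritic cells, macrophages and fibroblasts ranked first by median level. Not all myeloid gates were high. The pooled level was 12.9 CPM in neutrophils and 4.18, 5.08 and 7.59 CPM in type 1, mature and plasmacytoid dendritic cells. Over all kept cells it was 23.6 CPM. Among gates with 50 cells in a library, monocytes led in all 4, at 85.4, 119, 109 and 42.1 CPM. In library 4 their interval (40.0 to 44.3) overlapped that of fibroblasts (37.1 to 41.2). The thinned shares there were 4.09% in monocytes and 4.21% in fibroblasts. The pooled level was 54.3 CPM (52.1 to 56.5), and 110.3 CPM without library 4. Type 2 dendritic cells had 76.5 CPM in library 2 and 68.9 CPM (55.7 to 84.3) in the pool. Macrophages spread widely, with 6.63, 44.7, 69.5 and 27.2 CPM in libraries 1 to 4. Fibroblasts spread less, with 22.8, 38.1, 24.4 and 39.1 CPM, and held 48.5% of the 8367 Adora2b UMIs. They also held 122913643 of the 354742109 UMIs of all genes, and their pooled level was 33.0 CPM. Markers of a second compartment were found in 73.6% of fibroblasts and 17.2% of monocytes. In library 4 only 76 of the 985 fibroblasts were without them. The part of such cells in the Adora2b level of fibroblasts was not tested. The highest level of all gates was found in the 73 basophils or mast cells, at 155 CPM (116 to 204). The values were 154, 105, 211 and 135 CPM from 8, 8, 22 and 13 UMIs, so that each of the 4 libraries was high, but no library had the 50 cells needed to rank the gate. The thinned share in these cells was 21.1% (12.3 to 32.4), against 5.62% (4.99 to 6.29) in monocytes. Of the basophils or mast cells, 31.5% had markers of a second compartment and 41.1% had a Ptprc UMI. Lymphocytes were low, with 4.26 CPM in CD8 T cells, 4.46 CPM in NK cells and 5.28 CPM in CD4 T cells. Other T cells had 1 UMI in 313 cells (0.319%).

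**Figure D3:**
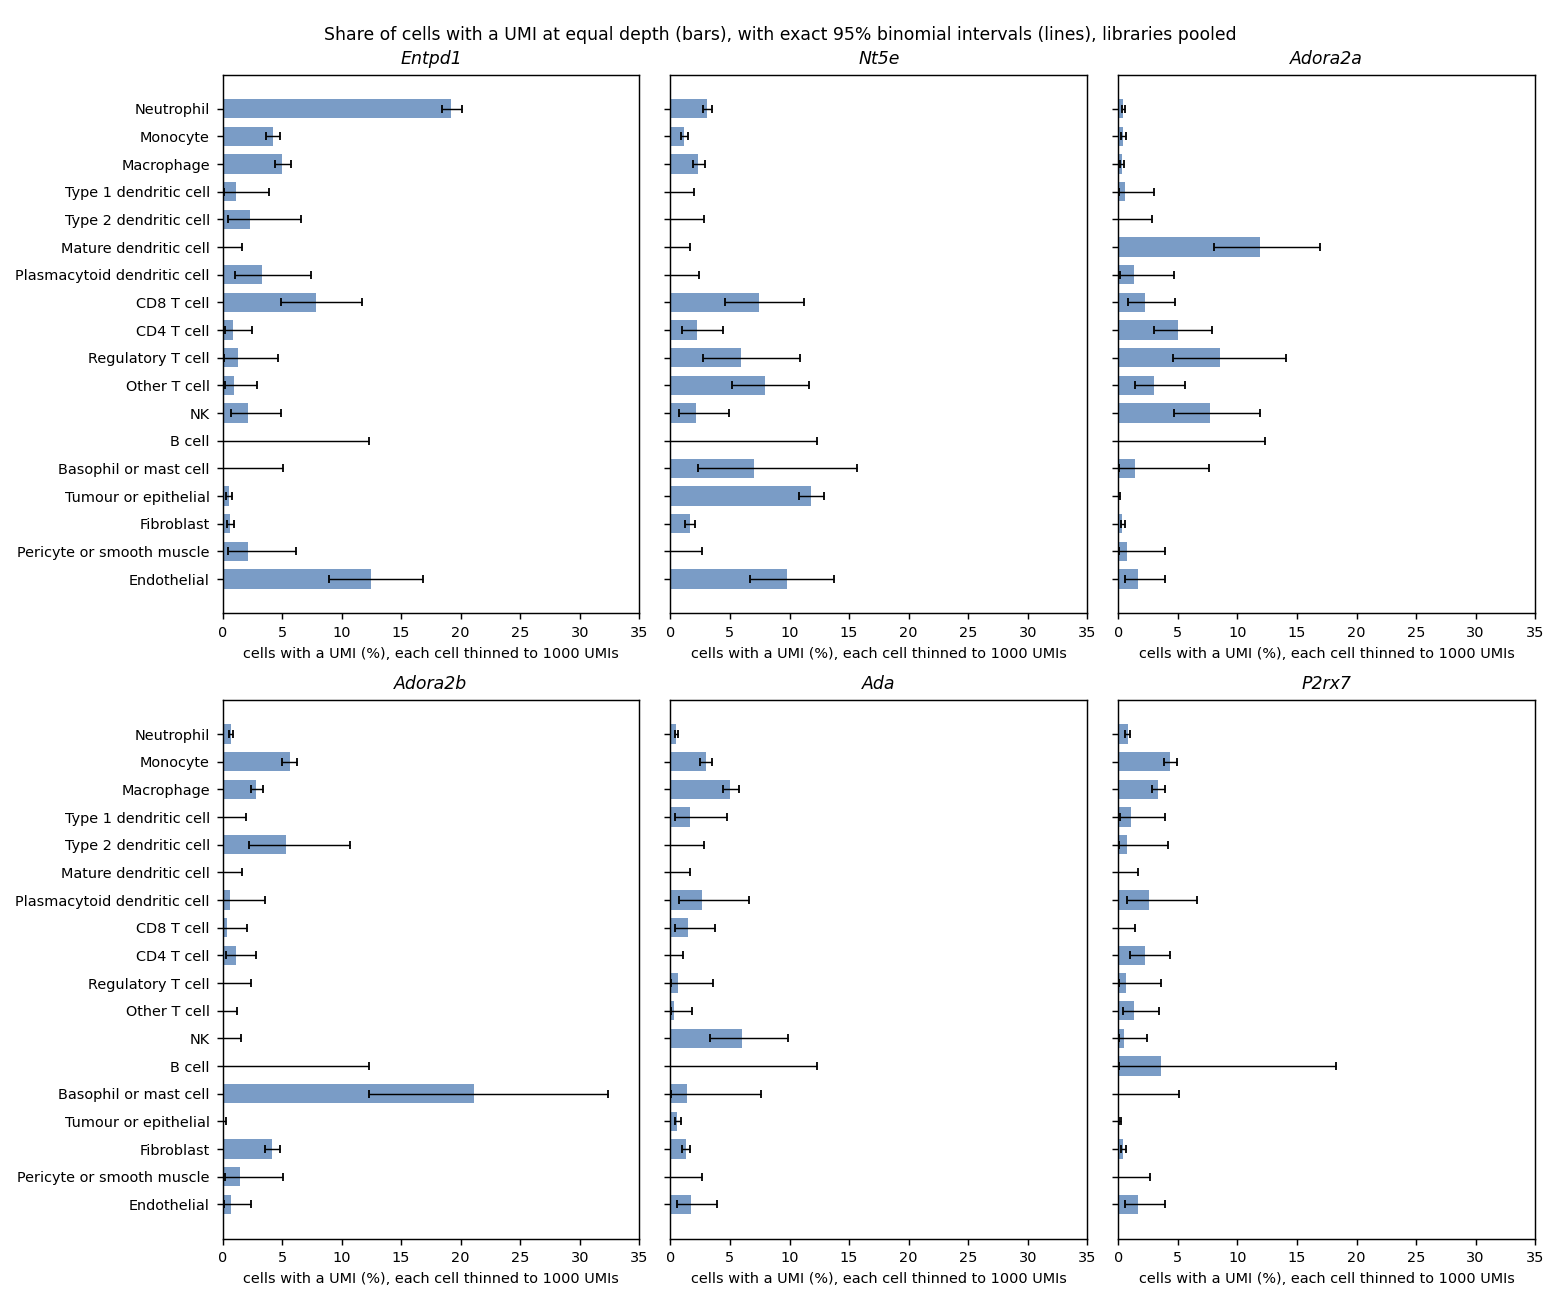
Share of cells with a UMI of each gene (x axis, percent) in the 18 gates (y axis) after each cell was thinned to 1000 UMIs. Bars are pooled shares and lines are exact 95% binomial intervals. Entpd1 reaches 19.2% in neutrophils, Adora2b 21.1% in basophils or mast cells and Adora2a 11.9% in mature dendritic cells, while the highest share of P2rx7 is 4.34% in monocytes.

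Few cells had UMIs of both receptor genes. Of the mature dendritic cells, 122 had an Adora2a UMI and 9 an Adora2b UMI, and 5 (2.14%, 0.697 to 4.92) had both. Of the NK cells, 68 had Adora2a and 3 (1.29%, 0.266 to 3.72) had both. Monocytes had both in 79 of 5005 cells (1.58%, 1.25 to 1.96), and Adora2b was found in 47.3% (39.5 to 55.2) of the monocytes with Adora2a and in 29.8% (28.5 to 31.1) of those without. After thinning only 2 monocytes had both, which left 10.5% (1.30 to 33.1) against 5.60% (4.97 to 6.28).

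Ada led in macrophages. The level was 35.9, 48.1, 62.9 and 87.1 CPM in libraries 1 to 4 and 53.2 CPM (50.8 to 55.7) in the pool, and 27.5% of macrophages had a UMI. NK cells followed at 41.0 CPM in library 1 and 47.2 CPM in library 4, the libraries in which they had at least 50 cells, and at 68.7 and 72.6 CPM in the 13 and 37 cells of libraries 2 and 3. The macrophage and NK ranges overlapped, and NK cells were the higher in libraries 1, 2 and 3. Thinned shares were 5.03% (4.38 to 5.75) and 6.01% (3.32 to 9.88). Monocytes had 9.80, 14.3, 30.5 and 34.4 CPM, below macrophages in each library. Fibroblasts had 14.4, 14.9, 16.3 and 18.0 CPM and held 31.0% of the 6474 UMIs. These deep cells also held 122913643 of the 354742109 UMIs of all genes. Their pooled level of Ada, 16.3 CPM, was below the 18.2 CPM of all kept cells. Neutrophils, which led for Entpd1, had 5.86 CPM of Ada, and 1.20% of them had a UMI. CD8 T cells had 24.4 CPM in library 1, while CD4 T cells had 6.16 CPM (3.37 to 10.3) in the pool.

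Leading gates were counted among those with at least 50 cells in a library. Over the 6 genes, 2 had the same leader in all 4 libraries, namely Entpd1 in neutrophils and Adora2b in monocytes. For Adora2b in library 4 the intervals of monocytes and fibroblasts overlapped. The same count over all genes was not made. For Nt5e the leader was the tumour gate in libraries 1 and 2, other T cells in library 3 (56.4 CPM) and neutrophils in library 4 (18.0 CPM). Endothelial cells, too few to be counted there, were higher, at 73.3 CPM in library 3 (42 cells) and 94.8 CPM in library 4 (16 cells). For Adora2a the leader was NK cells in libraries 1 and 4, monocytes in library 2 and mature dendritic cells in library 3. In library 2 NK cells and mature dendritic cells had fewer than 50 cells.

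27 other genes of the pathway were read in the same gates, and 3 of them had fewer than 500 UMIs. Neutrophils led for 5 of the 27, macrophages for 4, and pericytes or smooth muscle cells, plasmacytoid dendritic cells and the tumour gate for 3 each. These counts include the 3 genes of low count, P2rx1 for pericytes or smooth muscle cells and Adora1 and Entpd8 for the tumour gate. Adora1 had 10 UMIs and Entpd8 had 6 in all kept cells, too few to tell the gates apart. Each lead of pericytes or smooth muscle cells and of plasmacytoid dendritic cells rests on 1 library. Each lead of the tumour gate rests on 2 libraries, and each lead of neutrophils and macrophages on 4. How many of all genes each gate leads was not counted, so the counts cannot show whether a gate leads pathway genes unusually often. Adora3, which encodes another adenosine receptor, stood highest in basophils or mast cells (82.1 CPM, 54.1 to 119, 27 UMIs), as Adora2b did, and at 10.4 CPM in neutrophils. Slc29a1, the equilibrative transporter that takes adenosine into cells, led in the tumour gate as Nt5e did, at 152 CPM in the pool and 52.5 to 164 CPM over the 2 libraries with tumour cells in number.

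Of the 9 genes for ATP release and nucleotide receptors, P2rx4 and P2ry6 led in macrophages, where the pooled level of P2rx7 was 34.3 CPM. The median level in macrophages was 119 CPM (86.7 to 126 over the libraries) for P2rx4, an ATP channel related to P2rx7, and 128 CPM (107 to 146) for P2ry6, a UDP receptor. P2ry14, a receptor for UDP sugars, had 297 CPM (265 to 332) in plasmacytoid dendritic cells. P2ry2 and P2ry13 led in neutrophils, at medians of 25.0 and 18.0 CPM. P2rx1, an ATP channel known from platelets and smooth muscle, had 48.7 CPM (27.8 to 79.0) in basophils or mast cells from 16 UMIs.

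Of the 9 genes for enzymes that act on nucleotides or NAD outside the cell, Entpd3 and Bst1 led in neutrophils as Entpd1 did. Entpd3, another ectonucleotidase of the same family, had a median of 22.7 CPM there (16.6 to 31.4). Bst1, an NAD-consuming relative of Cd38, had 148 CPM (91.2 to 172), but its pooled level in monocytes was higher at 164 CPM. Entpd2 led in fibroblasts, at 27.0 CPM (9.31 to 58.9), a gate in which Entpd1 had 4.25 CPM. Enpp1, which makes AMP from ATP without CD39, led in macrophages at 56.1 CPM (12.8 to 111). Cd38 led in endothelial cells, at 63.8 CPM (47.1 to 80.5). Of the genes for uptake and removal, Pnp, which acts after Ada, led in endothelial cells (330.5 CPM, 277 to 384), Adk, which returns adenosine to AMP, had 143 CPM (105 to 190.1) in basophils or mast cells, and Dpp4, the binding partner of adenosine deaminase in humans, had 152 CPM in the type 1 dendritic cells of library 4.

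**Figure D4:**
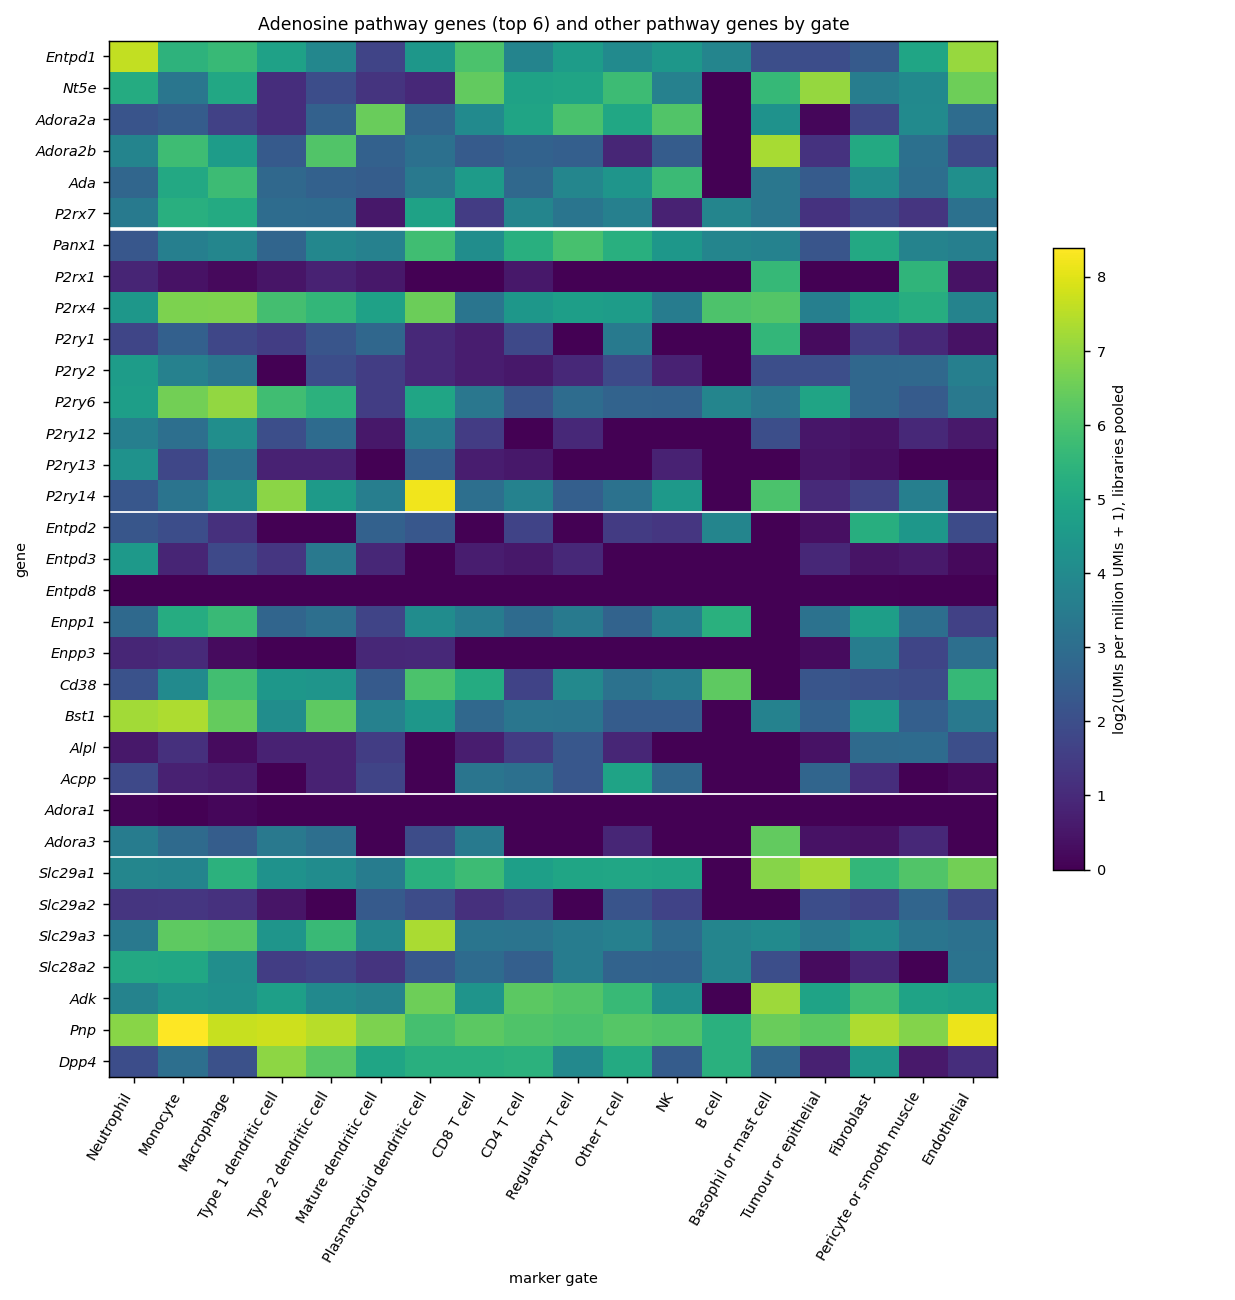
Pooled level of the 6 genes (top rows) and of the 27 other pathway genes (rows below, grouped by role) in the 18 gates (columns), as log2 of UMIs per 1000000 UMIs plus 1. Entpd1 is brightest in neutrophils (195 CPM), Nt5e in the tumour gate (133 CPM) and P2ry14 in plasmacytoid dendritic cells (297 CPM), and Adora1 and Entpd8 are dark in every column.

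The genes most like each member were sought over 33 pairs of a gate and a library with at least 50 cells, among 13362 genes with at least 500 UMIs that were no gate marker. The measure was Pearson's r of log2(CPM + 10), a description of points that share libraries and depth. Lrg1 (0.86), Ets2 (0.82) and Adipor1 (0.80) were most like Entpd1. Itga3 (0.87), Npnt (0.80) and Lama5 (0.79) were most like Nt5e. Pik3r1 (0.88), Stat4 (0.83) and Rnf157 (0.83) were most like Adora2a, and Mmp19 (0.85), Bach1 (0.83) and Ifi207 (0.81) most like Adora2b. Tmem37 (0.84), Pld3 (0.76) and Tmem104 (0.74) came first for Ada, and Ctsa, Msr1 and C3ar1 (each 0.89) for P2rx7. Among the members the values ran from -0.43 for Nt5e with Adora2b to 0.57 for Adora2b with P2rx7, with 0.27 for Entpd1 with Nt5e.

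All 6 genes are protein coding. On GRCm38 Entpd1 (ENSMUSG00000048120) lies at chr19:40612366-40741602 on the plus strand, Nt5e (ENSMUSG00000032420) at chr9:88327197-88372092 on the plus strand and Adora2a (ENSMUSG00000020178) at chr10:75316877-75334784 on the plus strand. Adora2b (ENSMUSG00000018500) lies at chr11:62248984-62266453 on the plus strand, Ada (ENSMUSG00000017697) at chr2:163726584-163750239 on the minus strand and P2rx7 (ENSMUSG00000029468) at chr5:122643911-122691432 on the plus strand. Of the members only Entpd1 and P2rx7 overlap other annotated genes on their strand, 3 and 1 of them, and these had at most 7 UMIs.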

How the data were processed

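The deposited file is 1 matrix of raw UMI counts for 55450 genes and 33064 barcodes of 4 libraries. Reads were aligned and counted with Cell Ranger, for which the submitters' processing notes give version 2.1.1 and build mm10, the protocol 3.0.2 and the matrix header 6.1.2. No source used here says whether libraries were brought to equal depth. Coordinates came from GENCODE vM21 (GRCm38), which holds every identifier.

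Cells with at least 300 genes and at most 15% UMIs of 37 mitochondrial genes were kept. A cell went to the marker list of which it had the highest share, with at least 3 markers detected and no tie, and T cells were divided by Foxp3, Cd4, Cd8a and Cd8b1, which gave 18 gates from 15 lists. No doublet caller was run. Cells with at least 3 markers of each of 2 compartments (of 6) were left out as an alternative. UMIs were summed per gate and library and given per 1000000 UMIs with exact Clopper-Pearson 95% intervals, which assume independent molecules and cover counting error only. Thinning drew 1000 UMIs per cell, leaving out shallower cells. Genes named are the 6 members, the genes of a list of 27 others with their role, and the 3 genes most like each member. The members, marker lists and gene lists were chosen with earlier results of these data known. The procedures were tested on simulated data. Simulated cells were drawn from the summed profiles of the same gates, so the test cannot check the gate names. No doublets or free RNA were added to them. Alternatives were 500 genes, 10% mitochondrial UMIs, 1 marker more, no mixed cells, thinning and leaving out each library. The values of Nt5e in cells without tumour markers were added after the data were seen. No protein or promoter sequence was used here. Python 3.11.15, numpy 2.4.6, scipy 1.17.1, pandas 2.3.3 and matplotlib 3.10.9 were used.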

Additional observations from a re-analysis of the deposited data

Results flagged for a closer look

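In 24 checks of a member in a gate with 4 libraries of at least 50 cells, 3 values stood apart by Dixon's test at the 95% level. Chance flags about 1 in 20 such checks where the 4 libraries are replicates of 1 group. The samples here came from more than 1 group, so that rate need not hold. Each is given as a value of a library whose treatment is not known. The test takes no account of counting error. Entpd1 in monocytes was 64.4 CPM (47.2 to 85.9) in library 1 (46 UMIs in 133 cells) and 40.8 to 44.4 CPM in the other libraries. Its interval overlapped those of libraries 2 and 3. Adora2a in fibroblasts was 0.642 CPM (0.0778 to 2.32) in library 1 from 2 UMIs, and 2.39 to 2.54 CPM in the others, with overlapping intervals. Ada in neutrophils was 10.8 CPM (7.96 to 14.2) in library 4 from 49 UMIs, and 4.15 to 4.92 CPM in the others. Its interval overlapped only that of library 1 (2.06 to 9.40).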

How the results depend on the processing

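Of 35 values recomputed under settings other than leaving out a library, 23 stayed within the counting interval (for the count of genes, within 1.5 times) and 12 moved beyond it; the cause was not tested. Without cells holding markers of a second compartment the level in the leading gate was 222 CPM for Entpd1, 126 CPM for Nt5e, 100.4 CPM for Adora2a (within the interval), 60.1 CPM for Adora2b, 60.7 CPM for Ada and 43.2 CPM for P2rx7. Thinning gave 242 CPM for Entpd1, 133 CPM for Adora2a, 60.4 CPM for Adora2b and 46.6 CPM for P2rx7, and gates that needed 1 marker more gave 201 CPM for Entpd1. The number of genes led by the same gate in every library was 2, but 4 with 1 marker more and 1 after thinning. Leaving out 1 library gave ranges of 163 to 229.5 CPM for Entpd1, 122 to 226 CPM for Nt5e, 81.2 to 89.1 CPM for Adora2a, 48.6 to 110.3 CPM for Adora2b, 41.4 to 68.1 CPM for Ada and 36.3 to 45.2 CPM for P2rx7, and 2 to 3 genes led by the same gate. Library 1 decides the pooled level of Nt5e and library 4 that of Adora2b. Small gates limit the rest, since gates of 30 to 73 cells never reached 50 in a library. No paired analysis was possible because the libraries could not be tied to samples and no test between groups was made.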
